A study of Homo sapiens with 2 samples.

Results

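The genes of voltage-gated sodium and calcium channels and of the hyperpolarization-activated HCN channels were followed in RNA sequencing of 1 library of undifferentiated H9 cells and 1 library of neural precursor cells (NPC) made from them. The members were taken by symbol: the SCN genes of sodium channel alpha and beta subunits, the CACNA1A to CACNA1I, CACNA2D, CACNB and CACNG genes of calcium channels, and the HCN genes. This gave 43 genes of 24462 symbols, each on a single row in both libraries. H9 is an established line of human embryonic stem cells (hESC), and the NPC were derived from it in co-culture with feeder cells of the mouse bone marrow stromal line MS5. No transgene, allele or drug is given in the labels for either group, and both groups are cells of the same line. There was no replicate, so no test between conditions was possible, every difference below is between these 2 libraries, and every interval is a 95% counting interval that holds no variation between cultures. Repeat reads of 1 molecule could not be removed, as there are no molecular identifiers, and the intervals do not cover that either. In bulk RNA, fewer cells of a type and less RNA per cell cannot be told apart.

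Voltage-gated channels open when the membrane potential changes. A sodium or calcium channel has a single large pore protein (alpha or alpha1), to which smaller subunits bind that set its gating and its delivery to the membrane. Sodium channels carry the upstroke of the action potential, calcium channels turn depolarization into calcium entry for transmitter release, contraction and transcription, and HCN channels carry a pacemaker current. In the developing brain, young neurons gain these channels as they begin to fire.

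The kept rows held 19669442 reads in the stem cells and 24040080 reads in the NPC. Levels are CPM, read counts scaled to depth, on effective library sizes that were adjusted by the trimmed mean of M-values (TMM). A gene was called measured at 5 CPM or more in either library, or some 86.9 reads for the hESC and 136 for the NPC. It passed the size rule, and is called higher or lower in the NPC, when even the weaker end of its interval was a difference of 2-fold or more. The cells were checked against fixed markers. The 5 pluripotency markers summed to 6782 CPM in the stem cells and 29.1 CPM in the NPC, and the 7 neural progenitor markers to 592 and 1429 CPM. The 12 neuron markers summed to 464 and 1996 CPM, with 7 higher and 1 lower in the NPC and none at 0, against 19.6% and 19.8% of all measured genes. The lower one was RBFOX3 (22.8 and 2.17 CPM), and NEFL, SYP, SYT1 and TUBB3 did not pass the rule. The 5 astroglia markers summed to 23.6 and 122 CPM, the 5 oligodendrocyte markers to 83.0 and 68.0 CPM and the 7 stroma markers to 656 and 957 CPM. Of the 6 measured stroma markers 4 were higher and 1 lower, against 19.6% and 19.8% of all measured genes. COL3A1 was at 0.633 and 288 CPM, COL1A2 at 122 and 375 CPM and THY1 at 267 and 23.5 CPM. The 16 heart and skeletal muscle markers summed to 279 and 70.3 CPM, with MYF5 and MYL2 at 0 in both libraries. The part of these cell types in the channel differences was not tested. Whether RNA of the mouse MS5 feeder cells entered the NPC counts was not tested either.

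Channel genes differed between the libraries mostly toward the NPC. Reads were found for 41 of the 43 genes in the stem cells and for 42 in the NPC, and 29 were measured. Of these, 13 were higher, 2 were lower and 14 did not pass the size rule. That is 44.8% of the measured members higher against 19.6% of all measured genes, and 6.90% lower against 19.8%. The filter favours such differences: 10 members were at 5 CPM only in the NPC, so none of them had a way to be called lower, and 2 were at 5 CPM only in the hESC. Among the 17 members with 5 CPM in both libraries, 4 were higher and 1 lower (23.5% and 5.88%), against 12.8% and 17.2% of the 10804 genes with that level in both. With no filter, 16 of the 42 members with a read were higher and 4 lower, against 16.6% and 15.3% of all genes with a read. The median log2 ratio, NPC over hESC, was 1.24 over the 29 measured members and -0.09 over all measured genes, and 0.46 and -0.14 over those with 5 CPM in both libraries. With the library total in place of TMM, which moves every log2 ratio by 0.36, 18 members were higher and 2 lower.

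Channel transcripts are long, and the ratio between these libraries was higher for long transcripts. The longest transcript had a median of 8138 bases among measured members and 3764 bases among all measured genes. The longest 10% of measured genes had a median log2 ratio of 0.34. With the trend with length removed, the median of the members was 1.07, with 14 higher and 2 lower.

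**Figure D1:**
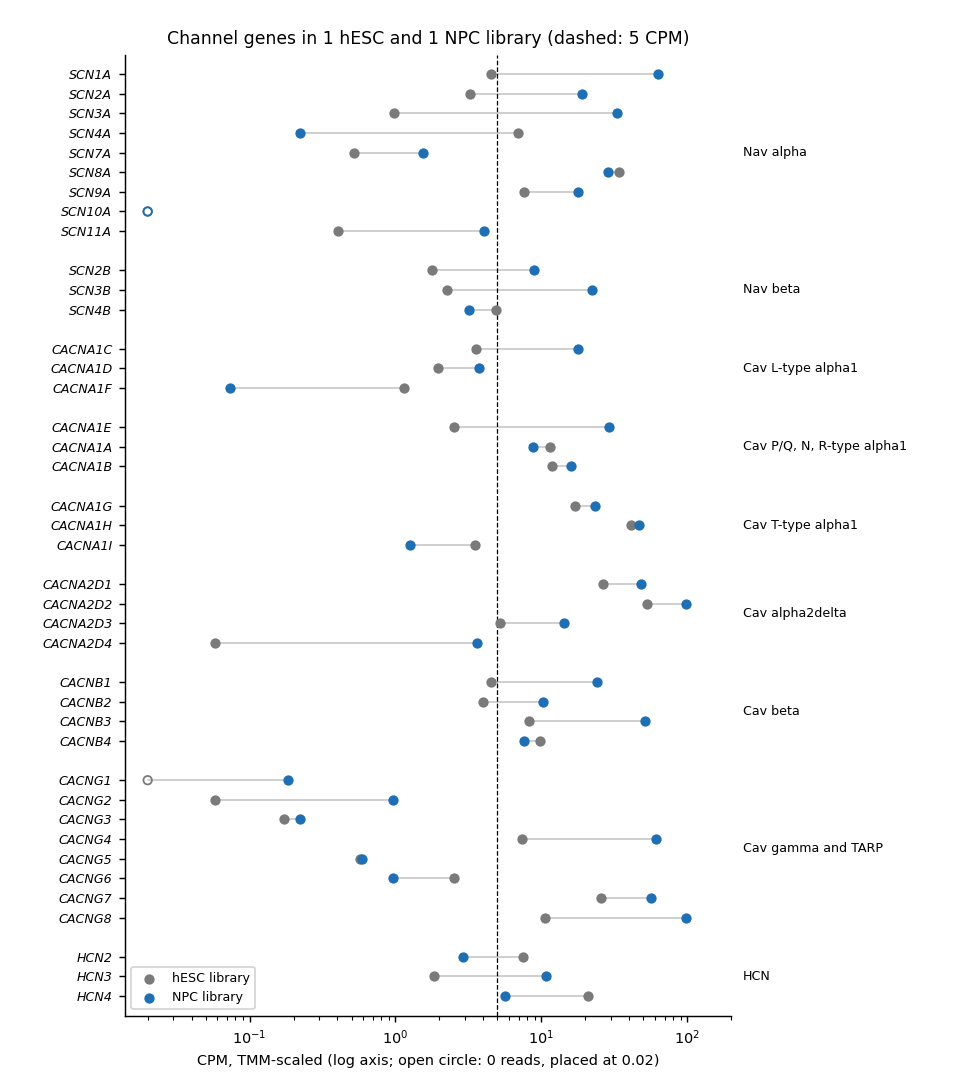
CPM of 40 of the 43 channel genes in the hESC library (grey) and the NPC library (blue) on a log axis, grouped by subunit class, with 1 library per point and a dashed line at 5 CPM. SCN3A, SCN1A, CACNA1E, CACNG4 and CACNG8 show wide gaps toward the NPC library, and SCN4A and HCN4 toward the hESC library.

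Sodium channel alpha genes differed in which members made up the pool. Together the 10 genes had 1349 reads (77.6 CPM) in the stem cells and 5084 reads (187 CPM) in the NPC, at a ratio of 2.41 (2.27 to 2.56). SCN1A, SCN2A and SCN3A, which encode channels of central neurons, were higher and SCN4A, the gene of the skeletal muscle channel, was lower. The other 3 measured genes, SCN8A and SCN9A among them, did not pass the rule, and they alone had 5 CPM in both libraries. Of the measured alpha genes 42.9% were higher and 14.3% lower, against 19.6% and 19.8% of all measured genes.

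SCN3A, whose channel is known for its high level in the fetal brain, had 17 reads (0.978 CPM) in the stem cells and 895 reads (32.9 CPM) in the NPC, at a ratio of 32.7 (20.9 to 58.0). SCN1A, whose loss causes a severe infant epilepsy, had 78 reads (4.49 CPM) and 1728 reads (63.5 CPM), a ratio of 14.1 (11.3 to 18.0). SCN2A, the gene of a channel of early axons, had 56 reads (3.22 CPM) and 513 reads (18.9 CPM), a ratio of 5.81 (4.44 to 7.86). All of these genes were under 5 CPM in the hESC library and well covered in the NPC, so none had a way to be called lower. SCN11A, the gene of a channel of pain-sensing neurons, had 7 and 110 reads (4.04 CPM in the NPC library) and stayed under the filter, with a ratio of 9.41 (4.71 to 25.6). SCN7A, the gene of an atypical sodium-sensing channel, had 9 and 42 reads, or 0.518 and 1.54 CPM.

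SCN4A had 120 reads (6.90 CPM) in the stem cells and 6 reads (0.221 CPM) in the NPC and was 29.0-fold lower (14.0 to 87.0). It was measured through the hESC library alone and was left out by a filter at 20 CPM or on the mean of both libraries, which leaves HCN4 as the 1 lower channel gene. The muscle markers ACTA1 (130 and 3.01 CPM), ACTC1 (46.5 and 6.87 CPM), TNNI3 (64.4 and 5.51 CPM) and TNNT2 (29.3 and 3.38 CPM) were lower as well, while MYH3 (0.805 and 16.0 CPM) and MYH7 (0.115 and 27.6 CPM) were higher. Of the other listed muscle markers with reads, MYOD1 had 1 and 4 reads, MYOG 6 and 48, CKM 1 and 18, NPPA 1 and 16 and MYH6 19 and 44. MYL7 had 17 and 7 reads, DES 40 and 38 and TNNI1 46 and 40. All of these were under 5 CPM in both libraries. Whether these markers bear on SCN4A was not tested.

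SCN8A, the gene of a channel of nodes and axon initial segments, had 595 reads (34.2 CPM) in the stem cells and 783 reads (28.8 CPM) in the NPC. With the library total the ratio of SCN8A lay on the NPC side, at a log2 value of 0.11, and with the length trend removed it was -0.72. SCN9A, the gene of a pain pathway channel, had 132 reads (7.59 CPM) and 489 reads (18.0 CPM). Its ratio of 2.36 (1.95 to 2.89) missed the rule by its lower bound but passed it with the library total. The log2 ratio of SCN9A was 1.24 with TMM and 0.81 with the length trend removed. SCN10A had 0 reads in both libraries, which allows up to 0.173 CPM in the stem cells and 0.110 CPM in the NPC.

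Per transcript length the order of the pool was different in the 2 libraries. Reads scaled by transcript length and depth (RPKM, on the longest transcript) put SCN8A first in the hESC library with 2.96 RPKM, against 0.884 RPKM for SCN4A and 0.348 RPKM for SCN1A. In the NPC library SCN1A was first with 4.92 RPKM, followed by SCN3A with 3.61 and SCN8A with 2.49 RPKM. SCN8A made 44.1% of the alpha reads in the hESC (exact binomial interval 41.4 to 46.8) and 15.4% in the NPC (14.4 to 16.4). SCN1A made 5.78% (4.60 to 7.16) and 34.0% (32.7 to 35.3), and SCN3A 1.26% (0.736 to 2.01) and 17.6% (16.6 to 18.7). These shares do not rest on the scaling between libraries, since each is taken within 1 library.

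Reads of the close alpha genes are hard to keep apart where their coding sequences are the same. SCN1A, SCN2A, SCN3A and SCN9A shared 2.11%, 4.73%, 5.55% and 3.70% of the 50-base words of their longest protein-coding transcript (GENCODE 29) with a transcript of another gene, and SCN8A and SCN4A shared none. The longest identical coding run was 206 bases between SCN3A and SCN9A and 170 bases between SCN1A and SCN2A. The treatment of reads with several places is not given in the sources used here, and the shared words are at most 5.55% of a transcript among these genes.

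The regions before the start sites of these genes differ in base content. RefSeq windows (GRCh38.p14), from 250 bases before to 50 bases after a start, were found for 28 of the 43 members, 42 windows in all. There were none for 15 members, among them CACNA1G, CACNA1H, CACNA2D4, CACNG1, CACNG2, CACNG4, CACNG5, CACNG7, CACNG8, SCN3A, SCN3B and SCN4A. The 250 bases before the start are shown for SCN1A (chr2:166128021-166128270, minus strand) and SCN2A (chr2:165239164-165239413, plus strand), which were higher. SCN8A (chr12:51590983-51591232, plus strand), which did not pass the rule, and the higher calcium channel gene CACNA1C (chr12:2052737-2052986, plus strand) are shown for contrast. These were chosen after their values were seen, capitals mark the GC box GGGCGG found on either strand, and overlapping boxes run together.
SCN1A: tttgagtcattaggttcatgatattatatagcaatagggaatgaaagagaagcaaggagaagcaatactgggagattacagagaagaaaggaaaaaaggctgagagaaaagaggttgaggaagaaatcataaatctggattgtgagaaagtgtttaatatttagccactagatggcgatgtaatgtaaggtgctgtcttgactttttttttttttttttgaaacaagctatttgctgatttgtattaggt
SCN2A: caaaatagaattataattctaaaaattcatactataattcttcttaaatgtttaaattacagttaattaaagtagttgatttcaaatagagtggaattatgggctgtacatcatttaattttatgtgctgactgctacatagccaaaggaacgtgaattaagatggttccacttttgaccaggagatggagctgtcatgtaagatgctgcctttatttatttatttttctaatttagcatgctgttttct
SCN8A: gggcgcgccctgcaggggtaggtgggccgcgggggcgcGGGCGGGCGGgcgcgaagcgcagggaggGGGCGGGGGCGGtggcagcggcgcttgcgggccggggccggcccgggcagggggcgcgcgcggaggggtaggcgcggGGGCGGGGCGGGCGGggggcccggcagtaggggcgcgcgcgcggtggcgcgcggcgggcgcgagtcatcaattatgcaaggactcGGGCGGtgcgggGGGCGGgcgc
CACNA1C: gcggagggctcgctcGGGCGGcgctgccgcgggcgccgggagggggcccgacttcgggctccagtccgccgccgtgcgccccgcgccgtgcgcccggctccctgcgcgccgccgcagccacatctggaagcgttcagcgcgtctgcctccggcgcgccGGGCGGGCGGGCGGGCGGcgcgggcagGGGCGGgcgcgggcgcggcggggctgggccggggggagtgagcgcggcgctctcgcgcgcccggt
The windows of SCN1A and SCN2A held 1 CpG site each and no GC box, with 33.6% and 29.2% G or C. The SCN8A window held 45 CpG sites and 9 GC boxes, and that of CACNA1C 51 CpG sites and 6 GC boxes, both with 85.6% G or C. The further windows of SCN1A and SCN2A, over the whole 300 bases, held 2 and 1 CpG sites and no GC box, while SCN9A held 28 CpG sites and 2 GC boxes. The first window of CACNB4, which did not pass the rule, held 2 CpG sites, and its further windows held 8, 28, 33 and 23. SCN7A held 0 in its first window and 11 in its second, and the window of SCN10A held 3. SCN7A was under the filter and SCN10A had no read, so neither had a way to be called.

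Over the whole windows, GGGCGG on either strand was found in 24 of 42 member windows (57.1%) and in 45.0% of all 35116 windows, and TATAAA in 2 (4.76%) and in 11.5%. The median was 19 CpG sites in member windows and 14 in all windows. The left and right parts of RE1, the site bound by the repressor REST that is known to hold neuronal genes silent outside neurons, were searched as TTCAGCACC and GACAGCGCC on both strands. The first was found in 1 member window, that of CACNG3, and in 0.376% of all windows, the second in 0 member windows and in 0.558% of all. No match says only that these letters are not in this window. REST had 1676 reads (96.4 CPM) in the stem cells and 2634 reads (96.8 CPM) in the NPC, and its corepressor gene RCOR1 had 42.8 and 50.3 CPM.

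Sodium channel beta genes encode single-pass subunits with an immunoglobulin fold that act on gating and on cell adhesion. The 4 genes had 190 reads (10.9 CPM) in the stem cells and 949 reads (34.9 CPM) in the NPC, at a ratio of 3.18 (2.73 to 3.75). SCN3B had 39 reads (2.24 CPM) and 608 reads (22.4 CPM), a ratio of 9.84 (7.20 to 14.1), and SCN2B had 31 reads (1.78 CPM) and 242 reads (8.90 CPM), a ratio of 4.92 (3.42 to 7.50). Both reached the filter in the NPC alone. SCN4B had 85 and 87 reads (4.89 and 3.20 CPM) and was under the filter. The share of SCN3B among beta reads was 20.5% (15.0 to 27.0) in the stem cells and 64.1% (60.9 to 67.1) in the NPC, and that of SCN4B 44.7% (37.5 to 52.1) and 9.17% (7.41 to 11.2).

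**Figure D2:**
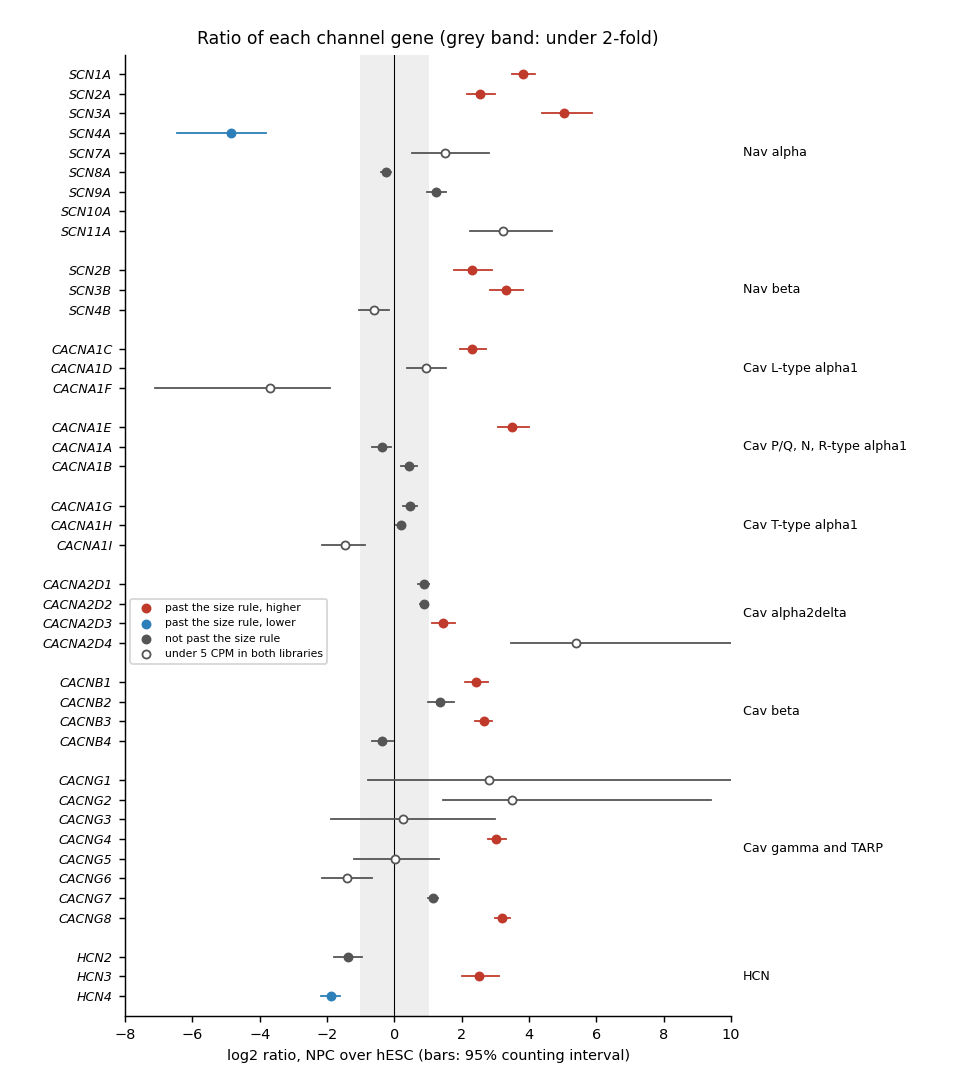
The log2 ratio of 40 of the 43 channel genes, NPC over hESC, with its 95% counting interval, grouped by class, red (higher) and blue (lower) for genes past the 2-fold rule, grey for others and open circles for genes under 5 CPM in both libraries. SCN3A lies highest among called genes at 5.03 and SCN4A lowest at -4.86, SCN10A, with no read, has no point, and the upper ends for CACNA2D4 and CACNG1 run past the axis.

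Calcium channel alpha1 genes differed less as a pool than the sodium channel alpha genes. The 9 genes had 1636 reads (94.1 CPM) in the stem cells and 3992 reads (147 CPM) in the NPC, at a ratio of 1.56 (1.47 to 1.65). CACNA1E and CACNA1C were higher, none was lower, and 4 measured genes did not pass the rule. The share higher was 33.3% of 6 measured genes, against 19.6% of all measured genes, of which 19.8% were lower. Both higher genes were at 5 CPM only in the NPC, so neither had a way to be called lower. The 4 genes with 5 CPM in both libraries were those that did not pass. The pore genes of T-type channels, which open at low voltage, differed little, with 61.6 and 71.3 CPM in all, a ratio of 1.16 (1.07 to 1.25).

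CACNA1E, which encodes the R-type pore, had 44 reads (2.53 CPM) in the stem cells and 790 reads (29.0 CPM) in the NPC, at a ratio of 11.4 (8.47 to 15.9). CACNA1C, which encodes the main L-type pore of heart, smooth muscle and neurons, had 62 reads (3.57 CPM) and 484 reads (17.8 CPM), a ratio of 4.95 (3.82 to 6.61). Its antisense genes CACNA1C-AS1 (8 and 20 reads) and CACNA1C-AS2 (16 and 24 reads) overlap its exons, and without a stated strand setting their reads cannot be told apart from those of CACNA1C. CACNA1D, another L-type gene, had 34 and 102 reads (1.96 and 3.75 CPM) and overlaps CHDH (93 and 169 reads). CACNA1F, the L-type gene of the retina, had 20 and 2 reads and was lower by the rule with no filter, with a ratio of 12.8 (3.80 to 138).

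The genes of the P/Q- and N-type pores, which serve fast transmitter release, were present in both libraries. CACNA1A (P/Q-type) had 200 reads (11.5 CPM) in the stem cells and 240 reads (8.82 CPM) in the NPC. CACNA1B (N-type) had 206 reads (11.9 CPM) and 434 reads (16.0 CPM), a ratio of 1.34 (1.14 to 1.60). Neither passed the rule. Log2 ratios of CACNA1A and CACNA1B were -0.79 and -0.005 with the length trend removed, and -0.03 and 0.78 with the library total. Within this trio CACNA1E made 9.78% of reads (7.19 to 12.9) in the stem cells and 54.0% (51.4 to 56.5) in the NPC.

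CACNA1H, a T-type gene, was the first of the alpha1 genes per length in both libraries. It had 715 reads (41.1 CPM, 5.01 RPKM) in the stem cells and 1271 reads (46.7 CPM, 5.69 RPKM) in the NPC, at a ratio of 1.14 (1.04 to 1.25). CACNA1G, also T-type, was second in both, with 294 reads (16.9 CPM, 2.08 RPKM) and 635 reads (23.3 CPM, 2.87 RPKM). The small ratios of both genes depended on the processing. In log2, CACNA1H was at -0.21 with the length trend removed and 0.54 with the library total, and CACNA1G at 0.07 and 0.82. CACNA1I, the other T-type gene, had 61 and 34 reads (3.51 and 1.25 CPM) and was under the filter. The order below these differed, and CACNA1E moved from the last place to the one after CACNA1G with 0.157 and 1.80 RPKM.

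The pools of the auxiliary calcium channel subunits had ratios toward the NPC, and with TMM that of the alpha2delta genes did not pass the size rule. The alpha2delta genes encode an extracellular subunit that brings channels to the membrane. They had 1469 reads (84.5 CPM) in the stem cells and 4447 reads (163 CPM) in the NPC. Their ratio was 1.93 (1.82 to 2.05) with TMM and 2.48 with the library total. CACNA2D3 passed the rule, with 91 reads (5.24 CPM) and 392 reads (14.4 CPM), a ratio of 2.74 (2.19 to 3.50). It overlaps CACNA2D3-AS1 (39 and 99 reads) on the opposite strand. CACNA2D2 had 920 reads (52.9 CPM) and 2653 reads (97.5 CPM), and CACNA2D1 had 457 reads (26.3 CPM) and 1303 reads (47.9 CPM). Their ratios of 1.84 (1.71 to 1.99) and 1.82 (1.64 to 2.03) missed the rule with TMM and passed it with the library total. In log2 they were 0.88 and 0.86 with TMM, and 0.62 and 0.49 with the length trend removed. CACNA2D4 had 1 and 99 reads (0.0575 and 3.64 CPM), under the filter, with a ratio of 42.4 (11.1 to 2524). CACNA2D2 was first in both libraries, with 62.6% (60.1 to 65.1) and 59.7% (58.2 to 61.1) of the class's reads.

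The beta genes encode cytosolic subunits that bind the alpha1 pore and raise its surface level. Their 4 genes had 458 reads (26.3 CPM) in the stem cells and 2540 reads (93.4 CPM) in the NPC, at a ratio of 3.54 (3.21 to 3.92). CACNB3, a main neuronal form, had 142 reads (8.17 CPM) and 1397 reads (51.4 CPM), a ratio of 6.27 (5.29 to 7.52). CACNB1, the form of skeletal muscle and also of brain, had 78 reads (4.49 CPM) and 657 reads (24.2 CPM), a ratio of 5.35 (4.25 to 6.90). CACNB1 and CACNB2 were at 5 CPM only in the NPC, so neither had a way to be called lower. CACNB3 had 5 CPM in both libraries. CACNB2, the main cardiac form, had 69 and 279 reads (3.97 and 10.3 CPM) and a ratio of 2.57 (1.98 to 3.41). It missed the rule with TMM and passed it with the library total and with upper-quartile factors. Its log2 ratio was 1.36 with TMM and 1.07 with the length trend removed. CACNB4 had 169 and 207 reads (9.72 and 7.61 CPM), which with the library total are equal to a log2 ratio of 0.00. That value was -0.35 with TMM and -0.76 with the length trend removed. Of the 50-base words of CACNB4, 12.7% are shared with an overlapping transcript model. CACNB4 made 36.9% of beta reads (32.5 to 41.5) in the stem cells and 8.15% (7.11 to 9.28) in the NPC, and CACNB3 31.0% (26.8 to 35.5) and 55.0% (53.0 to 56.9). Per length CACNB3 was first in both libraries, with 43.3% and 64.0% of the class.

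The CACNG genes hold the gamma subunit of the muscle channel, CACNG1, its relative CACNG6, and the TARPs, which are known less for calcium channels than for carrying AMPA-type glutamate receptors to synapses. The 6 TARP genes had 775 reads (44.6 CPM) in the stem cells and 5903 reads (217 CPM) in the NPC, at a ratio of 4.86 (4.52 to 5.25). CACNG8 had 185 reads (10.6 CPM) and 2661 reads (97.8 CPM), a ratio of 9.17 (7.92 to 10.7), and CACNG4 had 129 reads (7.42 CPM) and 1654 reads (60.8 CPM), a ratio of 8.16 (6.85 to 9.88). Both were above 5 CPM in both libraries and could have been called either way. CACNG7 had 447 reads (25.7 CPM) and 1540 reads (56.6 CPM), and its ratio of 2.20 (1.98 to 2.45) missed the rule by its lower bound but passed it with the library total, with upper-quartile factors and with the length trend removed.

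The order of the TARP genes depended on the scale. By reads CACNG7 made 57.7% (54.1 to 61.2) of TARP reads in the stem cells and 26.1% (24.97 to 27.23) in the NPC, where CACNG8 made 45.1% (43.8 to 46.4). Per length CACNG7 was first in both libraries, with 9.57 and 21.1 RPKM, CACNG4 second with 2.20 and 18.0 RPKM and CACNG8 after it with 1.22 and 11.2 RPKM. CACNG6 had 44 and 26 reads (2.53 and 0.956 CPM). CACNG1 (0 and 5 reads), CACNG2 (1 and 26 reads), CACNG3 (3 and 6 reads) and CACNG5 (10 and 16 reads) were under 1 CPM in both libraries, as was SCN10A. CACNG2, the gene of stargazin and the best known TARP, was higher by the rule with no filter, with a ratio of 11.3 (2.73 to 681).

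Among the HCN genes 1 was higher, 1 was lower and 2 did not pass the rule. That is 25% each way, against 19.6% and 19.8% of all measured genes. The higher gene, HCN3, was at 5 CPM only in the NPC, so it had no way to be called lower. HCN2 was at 5 CPM only in the hESC. Of the 2 HCN genes with 5 CPM in both libraries, 0 were higher and 1 was lower, against 12.8% and 17.2% of all such genes. The 4 genes had 645 reads (37.1 CPM) in the stem cells and 764 reads (28.1 CPM) in the NPC, at a ratio of 0.757 (0.681 to 0.842), which did not pass the rule and was 0.969 with the library total. HCN4, the gene of the main sinus node channel, had 364 reads (20.9 CPM) and 154 reads (5.66 CPM) and was 3.69-fold lower (3.06 to 4.50), a call that a 4-fold bound ends. HCN3 had 32 reads (1.84 CPM) and 291 reads (10.7 CPM) and was 5.73-fold higher (4.03 to 8.65), though it overlaps PKLR (13 and 32 reads) on the opposite strand.

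HCN2, a channel of thalamus and heart, had 131 reads (7.54 CPM) in the stem cells and 79 reads (2.90 CPM) in the NPC. Its ratio of 2.59 toward the hESC library (1.95 to 3.48) missed the rule, and 12.1% of its 50-base words are shared with other transcripts. The pool was thus made up differently. HCN4 made 56.4% of HCN reads (52.5 to 60.3) in the stem cells and 20.2% (17.4 to 23.2) in the NPC, and HCN3 4.96% (3.42 to 6.93) and 38.1% (34.6 to 41.6).

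**Figure D3:**
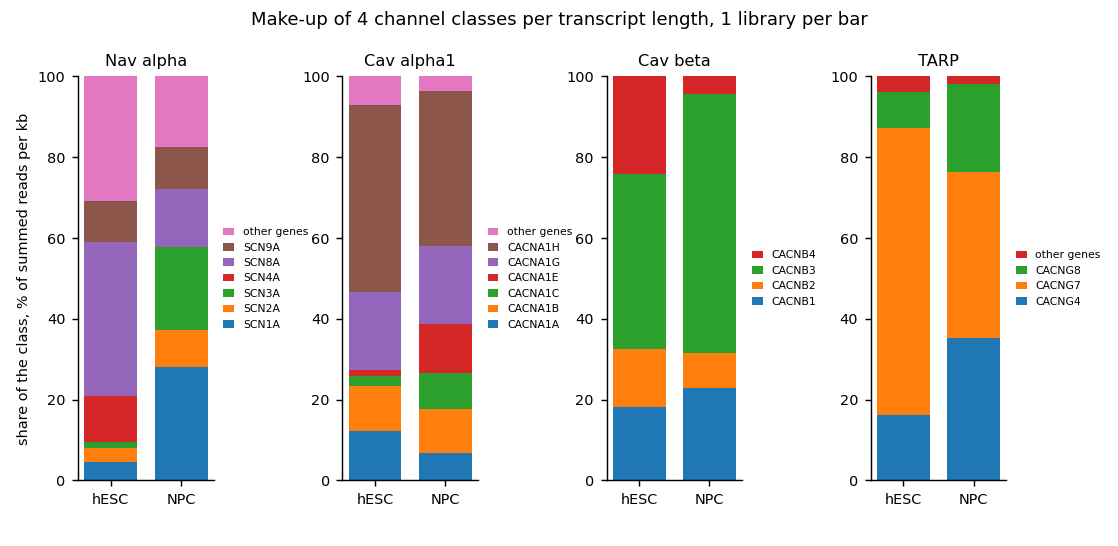
Share of genes in the summed reads per kilobase of its class, in percent, with 1 bar for each library, for the sodium channel alpha, calcium channel alpha1, calcium channel beta and TARP genes, with some genes joined as other genes. The bars of the alpha1, beta and TARP genes keep the same first gene (CACNA1H, CACNB3 and CACNG7), while SCN8A gives way to SCN1A.

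Genes that work with these channels were called both ways, with a lower share near that of all measured genes. A list of 50 partner genes held 40 measured ones, of which 12 were higher, 9 lower and 19 not past the rule. That is 30% higher and 22.5% lower, against 19.6% and 19.8% of all measured genes. Their median log2 ratio was 0.13. Of the called genes, 7 higher ones were at 5 CPM only in the NPC and 4 lower ones only in the hESC. Among the 28 partners with 5 CPM in both libraries, 5 were higher and 5 lower (17.9% each way), against 12.8% and 17.2% of all such genes.

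Of 13 measured sodium channel partners, 4 were higher and 1 was lower (30.8% and 7.69%, against 19.6% and 19.8% of all measured genes). NRCAM, which encodes an adhesion molecule of nodes and axon initial segments, had 185 reads (10.6 CPM) in the stem cells and 5265 reads (194 CPM) in the NPC, at a ratio of 18.1 (15.7 to 21.2). The other higher ones were ANK2, CNTN2 and NFASC, and the lower one was the ubiquitin ligase gene NEDD4L with 142 and 65.0 CPM. ANK3, the gene of the ankyrin that organizes the initial segment, had 81.6 and 89.1 CPM.

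In the complex of NALCN, a sodium leak channel that sets resting excitability, 2 of 5 genes were higher and 1 lower. These are 40% and 20%, against 19.6% and 19.8% of all measured genes. Both higher genes were at 5 CPM only in the NPC. UNC80, a subunit the channel needs, had 13 reads (0.748 CPM) in the stem cells and 1932 reads (71.0 CPM) in the NPC, at a ratio of 91.5 (55.4 to 179). The pore gene NALCN had 43 and 294 reads (2.47 and 10.8 CPM), while FAM155B had 553 and 167 reads (31.8 and 6.14 CPM).

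Calcium channel partners went both ways, with 6 of 19 measured genes higher and 7 lower (31.6% and 36.8%, against 19.6% and 19.8%). Of these, 5 higher genes were at 5 CPM only in the NPC and 4 lower ones only in the hESC. Among the 10 with 5 CPM in both libraries, 1 was higher and 3 lower (10% and 30%), against 12.8% and 17.2% of all such genes. CAMK2B, a neuronal calmodulin kinase gene, had 2 and 262 reads (9.63 CPM in the NPC), at a ratio of 67.1 (22.9 to 695). RIMBP2, which encodes a linker of calcium channels to the release site, had 13 and 343 reads (0.748 and 12.6 CPM), a ratio of 16.3 (9.73 to 32.0). STAC, an adaptor gene of L-type channels, had 204 and 18 reads (11.7 and 0.662 CPM) and was 17.3-fold lower (10.9 to 30.5), while JPH1, whose protein holds the calcium release sites of skeletal muscle to the surface membrane, had 830 and 141 reads (47.7 and 5.18 CPM) and was 9.18-fold lower (7.70 to 11.1). The calcium-binding protein gene CABP1 was 9.49-fold lower (6.19 to 15.7) and RYR1, the release channel of skeletal muscle, 7.39-fold lower (5.86 to 9.49), with 403 and 85 reads. The L-type pore gene of skeletal muscle, CACNA1S, had 11 and 32 reads. CALM2, a calmodulin gene, was the most abundant partner by CPM in both libraries, with 729 and 796 CPM, and the HCN partner PEX5L had 9.72 and 6.07 CPM.

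**Figure D4:**
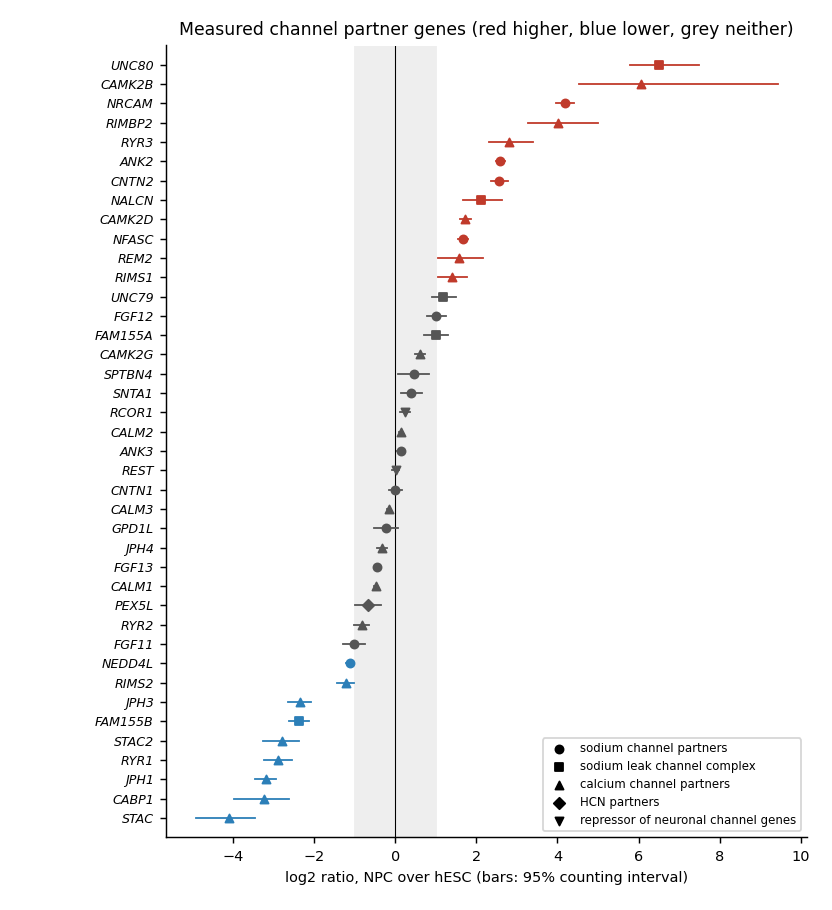
The log2 ratio, NPC over hESC, of the 40 measured partner genes with 95% counting intervals, ordered by ratio, with marker shapes for the kind of partner and 1 library per group. UNC80 is at the upper end at 6.52 and STAC at the lower end at -4.11, and 19 genes did not pass the 2-fold rule.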

How the data were processed

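Each deposited file gives 1 library's raw counts by gene symbol, in whole numbers. Per the submitters' processing notes the tools were TopHat and edgeR and the build hg19, with no role, order or version. Total RNA was isolated in Trizol before SMARTER mRNA-Seq library preparation, per the labels' protocols. How reads were counted (tool, annotation, strand, reads with several places) is not given in the sources used here.

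Of 25737 rows, 286 symbols lay on several, and the row with most reads was kept, which left 24462 symbols. Library sizes were scaled over the whole table by TMM (edgeR 4.0.16, R 4.3.3), with hESC and NPC factors of 0.884 and 1.13. Ratios had 0.5 added to each count, and intervals are exact Clopper-Pearson intervals (95%) on the NPC share of a gene's reads. A count of 0 allows up to 3 reads. With 1 library per group no p-value was computed, and group and batch cannot be told apart. The code was tested on simulated counts.

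Transcript lengths (longest transcript per symbol) and 50-base words and coding sequences (longest protein-coding transcript, which is shorter for some members) came from GENCODE 29 (GRCh38), and promoter windows from RefSeq. No coordinate was set against the hg19 counts. Exon overlaps were read from GENCODE 29. Python 3.11.15 and scipy 1.17.1 were used, and statsmodels 0.14.6 for the length trend (lowess, fraction 0.5). The members and lists were chosen with earlier results of these data known. Members with 1 CPM or more in either library are described with values, apart from 3 that are counted in the totals but not reported here. Of the partner list, up to 4 genes each way with the bound farthest from no change and the most abundant gene are named, and others such as ANK2, ANK3, NALCN, FAM155B, NEDD4L, CACNA1S, PEX5L and RCOR1 were chosen after their values were seen. Other settings tried were upper-quartile factors, DESeq2 1.42.0 size factors and the library total, filters at 1 and 20 CPM or none, a 4-fold bound, the point ratio, 1 added to each count, and summing the rows that share a symbol. Added after seeing the data were a filter on the mean of both libraries and removal of the length trend.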

Additional observations from a re-analysis of the deposited data

How the results depend on the processing

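Scaling moved the counts of called channel genes by less than 1.5 times: 13 to 18 were higher and 2 lower with TMM, the library total, DESeq2 size factors or upper-quartile factors. Among all measured genes 49.7% of calls were higher with TMM (2649 higher, 2683 lower) and 67.2% with the library total (3679 and 1796). The filter mattered more for the few lower channel genes, which were 4 at 1 CPM and 4 with no filter, and 1 with a filter on the mean of both libraries. At 20 CPM, 8 channel genes were higher and 1 lower, 6 partner genes and 1684 of all genes were higher, with fewer genes tested. With a 4-fold bound 1 channel gene was lower, 7 partner genes were higher, and of all genes 1236 were higher and 983 lower. For measured channel genes the median log2 ratio lay between 1.03 (filter at 1 CPM or none) and 2.42 (filter at 20 CPM). Followed here were 47 genes: members with 1 CPM or more in either library, those not reported here included, and partners named by rule. None of them that was called changed direction under another scaling, summed rows, 1 added to each count or the length trend removed. Of the 47, 22 moved beyond their counting interval with the library total and 20 with the length trend removed. Members under 1 CPM in both libraries rest on 26 reads or fewer in a library, which leaves wide intervals, as for CACNG2 (2.73 to 681). No paired analysis was possible because each group had 1 library.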

Other observations

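Several channel genes are neighbours among protein-coding genes in RefSeq, and neighbours did not always go the same way. SCN3A and SCN2A lie side by side, as do SCN1A, SCN9A and SCN7A, and each of these 5 genes had a ratio toward the NPC library, 3 of them past the size rule. Those 3 were at 5 CPM only in the NPC, so none had a way to be called lower, and SCN7A was under the filter. Of the 29 measured channel genes 22 had a ratio toward the NPC, as had 6447 of all 13535 measured genes. The shares higher were 44.8% and 19.6%. CACNG7, CACNG8 and CACNG6 also lie side by side, with ratios of 2.20 and 9.17 toward the NPC and 2.63 toward the hESC library. CACNG4, with 7.42 and 60.8 CPM, lies between CACNG5 and CACNG1, which had 10 and 16 reads and 0 and 5 reads. SCN2B and SCN4B are neighbours as well, with 1.78 and 8.90 CPM for SCN2B and 4.89 and 3.20 CPM for SCN4B. These are descriptions of 1 library per group, and no cause was tested.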
